A study of Mus musculus with 30 samples.

Results

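The 42 genes described here encode the machinery of mitosis: condensins and other chromosome proteins, cyclins and mitotic kinases, the chromosomal passenger complex, the spindle checkpoint, kinetochore proteins, kinesins and spindle proteins, cytokinesis proteins, and 2 transcription factors of this program. They were listed by name and by these 8 roles, and all 42 were found among the 55487 genes of the count table. They were measured by RNAseq in the livers of 30 male C57BL/6 mice that were 8 weeks old when the diets began. In the MCD anti-DBI group (n = 10), mice ate a diet lacking methionine and choline (MCD) for 6 weeks and received the monoclonal antibody that neutralizes ACBP/DBI, 2 times per week between week 4 and week 6. The MCD IgG group (n = 10) ate MCD and received a mouse IgG2a isotype antibody on the same schedule. The RCD anti-DBI (n = 5) and RCD IgG (n = 5) groups ate regular chow (RCD) and received the same antibodies. Chow was not the MCD diet with methionine and choline put back, so the diet comparison holds every difference between both feeds. All mice were injected, so no liver shows either diet without an antibody.

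In mitosis, cyclin B with Cdk1 drives cells into division, condensins compact the chromosomes, and kinesins build a spindle whose attachment to the kinetochores is watched by the spindle checkpoint until the anaphase-promoting complex (APC/C) releases the sister chromatids. Transcripts of these proteins accumulate late in the cell cycle and are scarce in resting cells. Most hepatocytes of an adult liver are at rest and can re-enter the cycle after injury or loss of tissue, and immune cells, stellate cells and bile duct cells of a damaged liver can divide as well.

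A shared feature of such genes is a promoter element called CHR (cell cycle genes homology region), often found with CCAAT boxes upstream of it. The promoters in RefSeq (GRCm38.p6, from 250 bases before to 50 bases after the annotated start) covered 36 of the 42 genes with 39 promoters. A CHR-like motif, TTTGAA or TTCGAA on either strand, stood in 31 of these 39 promoters (79.5%), against 19.2% of all 32851 promoters. CCAAT on either strand stood in 30 of 39 (76.9%), against 37.4% of all, and both motifs stood in 27 of 39 (69.2%), against 7.52% of all. Within 50 bases of the start, 30 of 39 promoters (76.9%) held the CHR-like motif, against 5.31% of all promoters. These are matches of letters, not measured sites. The promoters of Cenpa, Mki67 and Cdca3 are shown because they are the 3 most highly counted genes with full values below whose promoter holds the motif, and capitals mark the CHR-like motifs and the CCAAT boxes, which do not overlap in them.
Cenpa, chr5:30666636-30666935, plus strand: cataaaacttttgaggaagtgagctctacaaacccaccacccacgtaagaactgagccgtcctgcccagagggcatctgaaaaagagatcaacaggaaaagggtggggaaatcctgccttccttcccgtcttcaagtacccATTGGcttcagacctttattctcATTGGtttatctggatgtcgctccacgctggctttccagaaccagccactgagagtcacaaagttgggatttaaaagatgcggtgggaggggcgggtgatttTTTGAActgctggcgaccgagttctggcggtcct
Mki67, chr7:135716330-135716629, minus strand: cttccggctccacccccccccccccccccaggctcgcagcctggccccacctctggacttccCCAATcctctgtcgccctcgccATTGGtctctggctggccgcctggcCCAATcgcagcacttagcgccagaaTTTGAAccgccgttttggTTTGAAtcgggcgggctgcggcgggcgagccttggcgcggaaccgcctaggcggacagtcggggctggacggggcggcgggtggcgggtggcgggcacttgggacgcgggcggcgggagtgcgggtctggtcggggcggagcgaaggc
Cdca3, chr6:124829926-124830225, plus strand: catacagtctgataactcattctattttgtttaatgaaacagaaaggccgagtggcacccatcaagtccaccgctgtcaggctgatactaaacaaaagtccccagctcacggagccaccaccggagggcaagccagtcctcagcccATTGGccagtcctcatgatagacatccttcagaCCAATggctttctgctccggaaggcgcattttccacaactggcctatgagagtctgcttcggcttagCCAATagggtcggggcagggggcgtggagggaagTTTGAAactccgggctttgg
The CHR-like motif began 16 bases after the annotated start in Cenpa and 30 bases after it in Cdca3. Mki67 held 2 copies, at -116 and -98 from the start. Of these 3 genes with the motif, Mki67 and Cdca3 changed with diet and antibody, and Cenpa passed neither test, with the values given below.

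The libraries held 8.36 to 21.7 M counts each (1 M being 1e+06). Those of MCD anti-DBI held 11.1 to 21.7 M and those of MCD IgG held 10.3 to 15.8 M. Most MCD anti-DBI libraries were larger than every MCD IgG library, so depth differed along with the antibody on MCD. The part of this difference in the results was not tested. All 42 genes together had 378 to 1415 counts per liver in MCD anti-DBI, 598 to 3089 counts in MCD IgG, 564 to 1154 counts in RCD anti-DBI and 424 to 618 counts in RCD IgG, so single genes often rest on a few counts per liver. Levels are given in CPM, counts per 1e+06 counts of a library after TMM scaling. The tissue label was checked with hepatocyte markers, of which 8 were found in the table, and they summed to between 71424 and 171582 CPM in every liver. MCD anti-DBI livers 5 and 10 were nearly alike, with 8 genes that differed by over 1.5-fold against at least 134 in every other pair of livers of 1 group, and results with both summed are given in the closing section. In whole liver, fewer dividing cells and less RNA per dividing cell cannot be told apart.

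On MCD most of these genes rose, and under anti-DBI most fell to levels close to those on chow. The summed level of the 42 genes was 54.9 ± 9.64 CPM in MCD anti-DBI livers and 132 ± 57.9 CPM in MCD IgG livers (SD, n = 10 each). It was 61.7 ± 16.9 CPM in RCD anti-DBI livers and 48.7 ± 4.10 CPM in RCD IgG livers (SD, n = 5 each). The spread in MCD IgG was wide, with liver 3 at 250 CPM and liver 5 at 51.9 CPM, which lies within the RCD IgG range of 43.8 to 54.7 CPM.

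**Figure D1:**
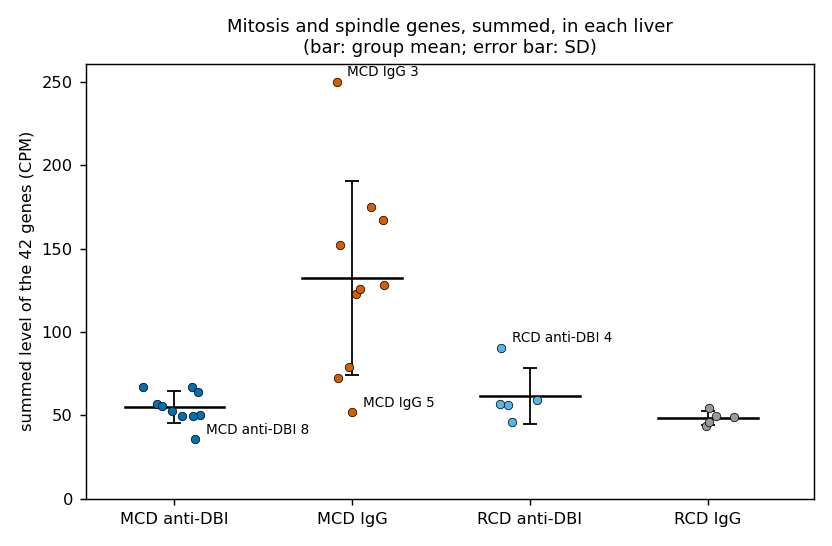
Summed CPM of the 42 mitosis and spindle genes in each of the 30 livers (points), by group, with the group mean (bar) and SD (error bar). Of the 10 MCD IgG livers, 9 lie above every MCD anti-DBI liver (35.6 to 67.1 CPM) and every RCD IgG liver (43.8 to 54.7 CPM), and MCD IgG liver 5 lies among them.

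In MCD IgG against RCD IgG, 38 of the 42 genes had enough counts for the edgeR quasi-likelihood test. Of these, 35 rose (Benjamini-Hochberg adjusted p under 0.05 over all genes tested), none fell and 3 did not pass, while 29.9% of all 13672 genes tested were higher. Their median log2 fold change was 1.95, against 0.03 over all genes. Because a gene can enter this test through its high group, the counts were also tested without a filter on low counts: 36 of the 42 genes then rose, against 16.2% of 26843 genes, with a median of 1.90. In MCD anti-DBI against MCD IgG, 29 genes could be tested, of which 26 fell and none rose, while 21.7% of all 13538 genes were lower. The median was -1.71, against -0.02 over all genes. Without the filter, 37 of the 42 fell, against 10.1% of 28081 genes, with a median of -1.91. Both comparisons share the MCD IgG livers, so a high value there moves both, and the fall under the antibody is no separate evidence of the rise on MCD.

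**Figure D2:**
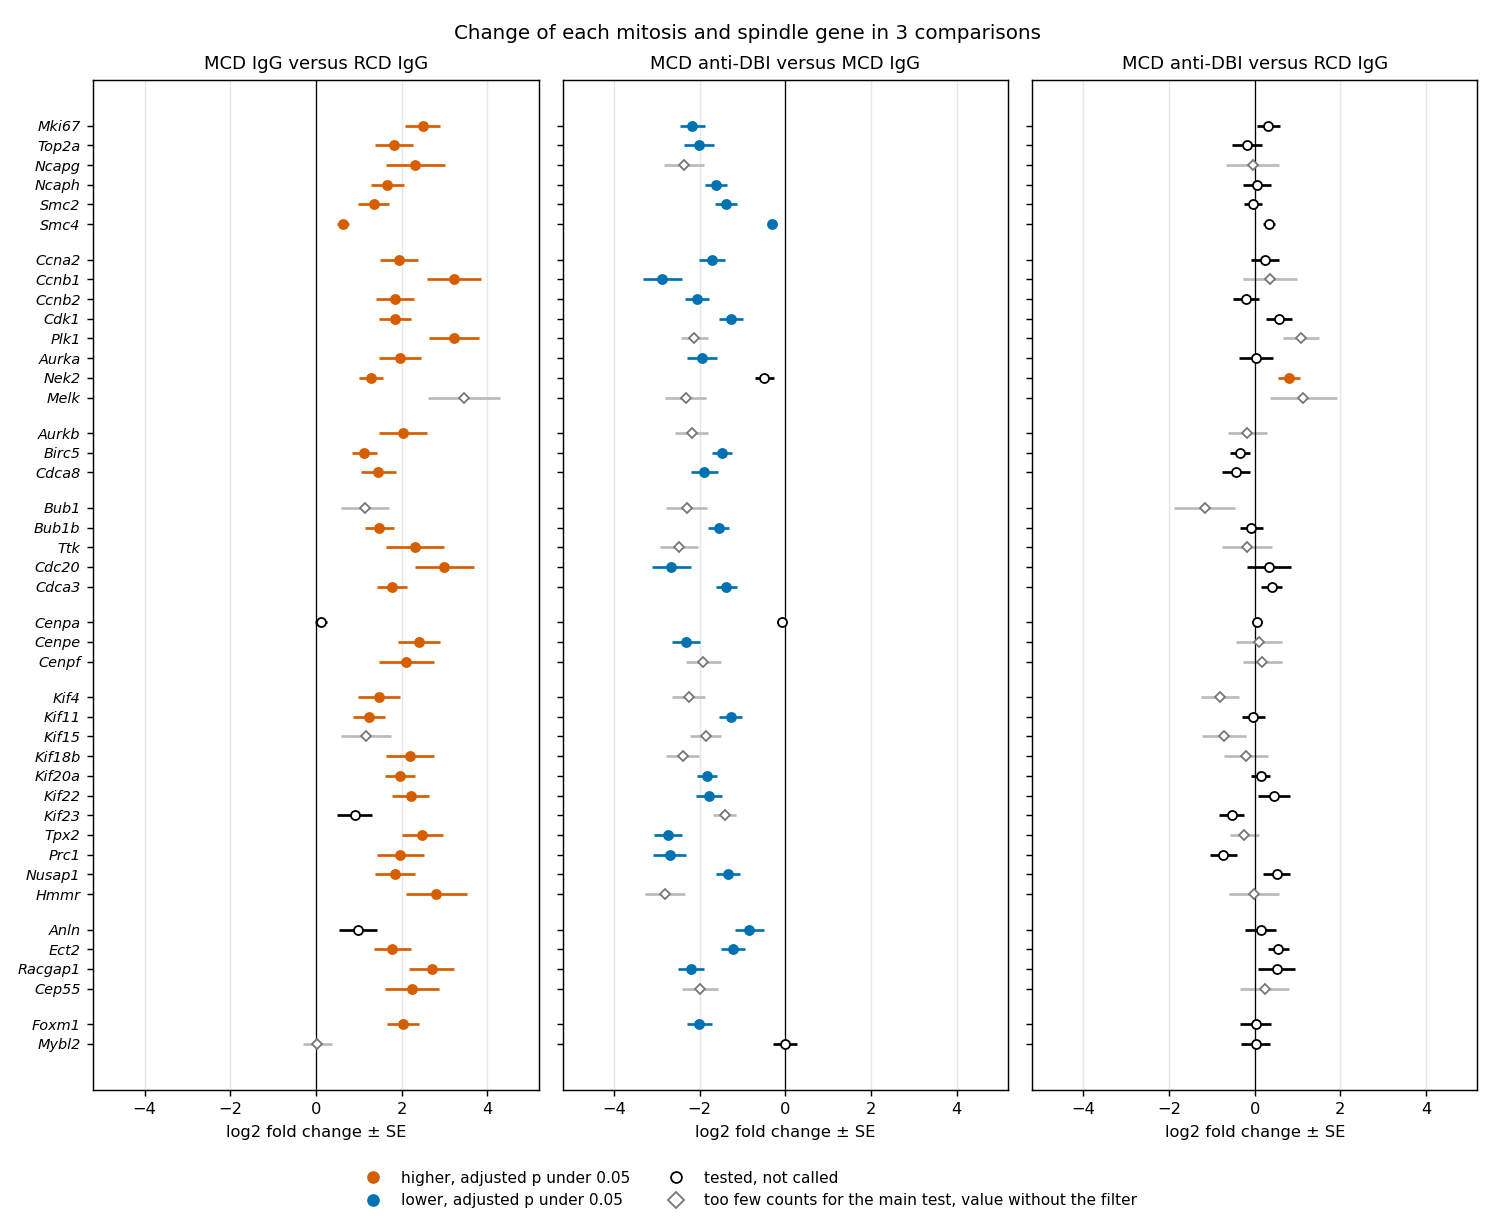
Log2 fold change ± SE of each of the 42 genes in MCD IgG versus RCD IgG (left), MCD anti-DBI versus MCD IgG (middle) and MCD anti-DBI versus RCD IgG (right), with genes grouped by role. Filled circles passed the test, open circles did not, and open diamonds mark genes with too few counts, shown at their value without the filter: 35 genes are called in the left panel, 26 in the middle and 1, Nek2, in the right.

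Among the genes of chromosome structure, Mki67 (chr7:135689784-135716361) encodes Ki-67, the usual marker of dividing cells, which coats mitotic chromosomes. Mki67 had a lowest, median and highest level of 0.754, 1.89 and 3.37 CPM in MCD anti-DBI livers, against 1.91, 8.96 and 18.4 CPM in MCD IgG livers. It had 1.35, 1.99, 2.85, 6.60 and 2.75 CPM in the RCD anti-DBI livers, against 1.93, 1.51, 1.14, 1.84 and 1.56 CPM in the RCD IgG livers. Of the 10 MCD IgG livers, 9 stood above every MCD anti-DBI liver and also above every RCD IgG liver, liver 5 being the exception. The log2 fold change was 2.49 ± 0.417 (SE) for MCD IgG against RCD IgG (edgeR adjusted p = 6.05e-05) and -2.17 ± 0.289 for MCD anti-DBI against MCD IgG (edgeR adjusted p = 6.77e-06).

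Top2a (chr11:98992943-99024189) encodes topoisomerase II alpha, which untangles sister chromatids. Its lowest, median and highest levels were 0.554, 1.28 and 2.56 CPM in MCD anti-DBI, against 1.48, 5.12 and 12.7 CPM in MCD IgG. The RCD anti-DBI livers had 1.80, 0.894, 1.03, 3.85 and 2.22 CPM, against 1.03, 1.51, 1.90, 1.44 and 1.75 CPM in the RCD IgG livers. Both MCD groups overlapped in MCD IgG livers 2, 4 and 5, and the other 7 MCD IgG livers stood above all MCD anti-DBI livers. Top2a rose by 1.82 ± 0.446 on the log2 scale on MCD (edgeR adjusted p = 0.00194) and fell by 2.01 ± 0.353 under anti-DBI on MCD (edgeR adjusted p = 0.000131).

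The condensins, ring complexes that fold mitotic chromosomes, were of unequal change. Smc4 (chr3:69004738-69034623), an ATPase shared by both condensins, had 8.95, 14.7 and 17.3 CPM as its lowest, median and highest in MCD anti-DBI, against 12.7, 17.4 and 24.5 CPM in MCD IgG. It had 11.2, 13.2, 12.1, 12.3 and 11.8 CPM in RCD anti-DBI, against 13.7, 11.8, 11.4, 11.9 and 8.48 CPM in RCD IgG. The MCD groups overlapped widely, and 5 MCD IgG livers stood above all MCD anti-DBI livers. Smc4 rose on MCD by 0.64 ± 0.141 (edgeR adjusted p = 0.000808) and its value under anti-DBI was -0.30 ± 0.116 (edgeR adjusted p = 0.0388), a call that was lost in 13 of 28 alternatives. Its partner Smc2 changed more, by 1.35 on MCD and by -1.39 under anti-DBI. The condensin I subunits Ncaph (1.66 and -1.62) and Ncapg (2.32 on MCD, and -2.37 under anti-DBI without the filter) passed in both comparisons.

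Of the cyclins and mitotic kinases, 7 of 7 tested rose on MCD and 5 of 6 tested fell under anti-DBI. Nek2 (chr1:191821444-191833050), a centrosome kinase and the most highly counted of them, was the exception. Nek2 had 2.54, 4.74 and 8.90 CPM as its lowest, median and highest in MCD anti-DBI, against 3.13, 5.67 and 13.4 CPM in MCD IgG. It had 4.73, 4.77, 4.91, 4.95 and 4.44 CPM in RCD anti-DBI, against 2.71, 2.45, 3.52, 2.97 and 2.05 CPM in RCD IgG. Both MCD groups overlapped over most of their range, whereas all RCD anti-DBI livers stood above all RCD IgG livers. Nek2 rose on MCD by 1.28 ± 0.280 (edgeR adjusted p = 0.000790), and its value under anti-DBI on MCD was -0.49 ± 0.227 (edgeR adjusted p = 0.0907). This p became 0.0218 without MCD anti-DBI liver 6 and 0.0430 without MCD IgG liver 5.

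The cyclins changed strongly. Ccnb1, cyclin B1, rose by 3.23 on MCD and fell by 2.87 under anti-DBI, with means of 0.287 CPM in MCD anti-DBI, 2.23 CPM in MCD IgG and 0.243 CPM in RCD IgG. Ccnb2 (1.85 on MCD and -2.06 under anti-DBI) and Ccna2, cyclin A2 (1.94 and -1.71), and their kinase Cdk1 (1.84 and -1.27) passed both tests. Aurka, the kinase of the spindle poles, gave 1.96 and -1.94 and also passed both. Plk1, the kinase that matures centrosomes and spindles, rose by 3.22 on MCD and had -2.13 under anti-DBI without the filter. Melk could be tested only without the filter, with 3.45 on MCD and -2.33 under anti-DBI, on 0 to 26 counts per liver.

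The chromosomal passenger complex corrects faulty attachments of chromosomes to the spindle. All 3 of its genes rose on MCD. Birc5 (chr11:117849251-117855743), survivin, had 0.659, 1.18 and 2.36 CPM as its lowest, median and highest in MCD anti-DBI, against 1.13, 3.72 and 5.55 CPM in MCD IgG. The RCD anti-DBI livers had 0.976, 1.19, 1.27, 2.51 and 2.39 CPM, against 1.42, 1.60, 1.33, 1.60 and 1.75 CPM in RCD IgG. Of the MCD IgG livers, 8 stood above every MCD anti-DBI liver, and MCD anti-DBI liver 6 was the highest of its group. Birc5 rose on MCD by 1.13 ± 0.284 (edgeR adjusted p = 0.00237) and fell under anti-DBI by 1.48 ± 0.228 (edgeR adjusted p = 3.28e-05). Its partner Cdca8, borealin, gave 1.45 on MCD and -1.89 under anti-DBI. The kinase of the complex, Aurkb, gave 2.03 on MCD and, without the filter, -2.19 under anti-DBI.

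In the spindle checkpoint and APC/C group, Cdc20, the activator of APC/C that the checkpoint holds back, had the largest changes, 2.99 on MCD and -2.66 under anti-DBI. Its gene overlaps Elovl1 on the other strand, and the library kit does not mark the strand, so reads of both cannot be told apart in the overlap. This limit also holds for Ncapg, Ccna2, Cdca8, Kif4, Kif20a, Prc1 and Nusap1, each of which overlaps a protein-coding gene with at least 100 counts on the other strand. Cdca3 (chr6:124829547-124833701), which helps to degrade the mitosis inhibitor Wee1, had 1.24, 1.90 and 3.17 CPM as its lowest, median and highest in MCD anti-DBI, against 2.18, 4.67 and 11.1 CPM in MCD IgG. It had 1.43, 2.09, 2.06, 3.38 and 1.33 CPM in RCD anti-DBI, against 1.42, 1.51, 1.05, 2.24 and 1.85 CPM in RCD IgG. All MCD IgG livers but liver 2 stood above every RCD IgG liver, and 8 stood above every MCD anti-DBI liver. Cdca3 rose on MCD by 1.77 ± 0.353 (edgeR adjusted p = 0.000332) and fell under anti-DBI by 1.38 ± 0.245 (edgeR adjusted p = 0.000143). The checkpoint kinase gene Bub1b gave 1.48 and -1.56 and Ttk 2.31 on MCD, with -2.48 under anti-DBI without the filter. Bub1 had 0 to 17 counts per liver. Without the filter, its value on MCD was 1.14 (edgeR adjusted p = 0.144) and under anti-DBI -2.30 (edgeR adjusted p = 0.000876).

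The centromere genes split. Cenpa (chr5:30666777-30674830) encodes the histone H3 variant that marks the centromere. Cenpa had 4.80, 7.03 and 8.20 CPM as its lowest, median and highest in MCD anti-DBI, against 5.72, 6.97 and 12 CPM in MCD IgG. It had 6.00, 7.55, 6.73, 6.83 and 6.48 CPM in RCD anti-DBI, against 6.96, 6.12, 6.38, 7.54 and 6.63 CPM in RCD IgG. All 4 groups overlapped, and only MCD IgG liver 3 stood apart. The values were 0.12 ± 0.147 on MCD (edgeR adjusted p = 0.515) and -0.07 ± 0.118 under anti-DBI (edgeR adjusted p = 0.638), although Cenpa had among the highest counts of the 42 genes and hence small errors. Cenpe, the kinetochore kinesin that moves chromosomes to the spindle equator, gave 2.41 on MCD and -2.32 under anti-DBI. Every MCD IgG liver had more Cenpe (0.699 to 3.56 CPM) than any MCD anti-DBI liver (0.111 to 0.657 CPM) and any RCD IgG liver (0 to 0.516 CPM). Cenpf rose by 2.11 on MCD and had -1.92 under anti-DBI without the filter.

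Of the kinesins and spindle proteins, 9 of 10 tested rose on MCD and 6 of 6 tested fell under anti-DBI. Kif20a (chr18:34624613-34633277), a kinesin of the central spindle, had 0.775, 1.04 and 1.61 CPM as its lowest, median and highest in MCD anti-DBI, against 1.59, 4.04 and 6.22 CPM in MCD IgG. It had 0.901, 1.29, 1.19, 2.59 and 1.60 CPM in RCD anti-DBI, against 1.16, 0.941, 1.24, 0.962 and 0.682 CPM in RCD IgG. All MCD IgG livers stood above all RCD IgG livers, and 9 stood above all MCD anti-DBI livers. Kif20a rose on MCD by 1.96 ± 0.349 (edgeR adjusted p = 0.000112) and fell under anti-DBI by 1.83 ± 0.235 (edgeR adjusted p = 4.79e-06), and it overlaps Cdc23 on the other strand.

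Tpx2, which activates Aurora A on the spindle, rose by 2.48 and fell by 2.74, and Prc1, which bundles the microtubules of the central spindle, rose by 1.97 and fell by 2.70. Kif22 (2.21 and -1.78), the bipolar spindle motor Kif11 (1.24 and -1.27) and the microtubule-binding Nusap1 (1.84 and -1.34) passed both tests. Hmmr (2.81), Kif18b (2.20) and Kif4 (1.46) rose on MCD, with -2.80, -2.40 and -2.26 under anti-DBI without the filter. The exceptions on MCD were Kif23, a motor of the central spindle, at 0.90 (edgeR adjusted p = 0.0644) and Kif15 at 1.17 without the filter (edgeR adjusted p = 0.143). Without the filter, Kif23 (-1.42) and Kif15 (-1.86) were lower under anti-DBI (edgeR adjusted p = 0.000467 and 0.000400).

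Of the cytokinesis genes, 3 of 4 rose on MCD and 3 of 3 tested fell under anti-DBI. Ect2 (chr3:27097222-27153878), the exchange factor that switches on RhoA at the cleavage furrow, had 0.942, 1.91 and 2.79 CPM as its lowest, median and highest in MCD anti-DBI, against 1.04, 5.07 and 8.87 CPM in MCD IgG. It had 0.825, 0.795, 2.38, 1.89 and 1.15 CPM in RCD anti-DBI, against 1.93, 1.51, 0.952, 0.802 and 1.56 CPM in RCD IgG. MCD IgG livers 2, 4 and 5 lay within the MCD anti-DBI range and the other 7 above it. Ect2 rose on MCD by 1.78 ± 0.434 (edgeR adjusted p = 0.00190) and fell under anti-DBI by 1.23 ± 0.280 (edgeR adjusted p = 0.00142). Racgap1, a subunit of the centralspindlin complex, gave 2.70 and -2.20. Cep55, which acts at the final cut between daughter cells, gave 2.24 on MCD and -2.0 under anti-DBI without the filter. Anln, anillin, a scaffold of the contractile ring, gave 0.98 on MCD (edgeR adjusted p = 0.0723) and -0.84 under anti-DBI (edgeR adjusted p = 0.0490), and this call was not kept in 21 of 28 alternatives, among them no filter, RLE scaling and leaving out any MCD anti-DBI liver but liver 6.

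The transcription factors differed from each other. Foxm1 (chr6:128362967-128376146), an activator of late cell cycle genes, had 0.0942, 0.519 and 1.04 CPM as its lowest, median and highest in MCD anti-DBI, against 0.781, 2.26 and 4.64 CPM in MCD IgG. It had 0.375, 0.497, 0.792, 1.49 and 0.355 CPM in RCD anti-DBI, against 0.258, 0.565, 0.571, 0.721 and 0.682 CPM in RCD IgG. All MCD IgG livers stood above all RCD IgG livers, and 9 stood above all MCD anti-DBI livers. Foxm1 rose on MCD by 2.03 ± 0.383 (edgeR adjusted p = 0.000198) and fell under anti-DBI by 2.01 ± 0.287 (edgeR adjusted p = 1.40e-05). Mybl2, B-Myb, averaged 0.671 ± 0.297 CPM in MCD anti-DBI, against 0.671 ± 0.243 CPM in MCD IgG (SD, n = 10 each), and 0.659 ± 0.0715 CPM in RCD IgG (n = 5). Its value under anti-DBI was -0.01 ± 0.274 (edgeR adjusted p = 0.973), and on MCD it was 0.03 without the filter (edgeR adjusted p = 0.953).

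**Figure D3:**
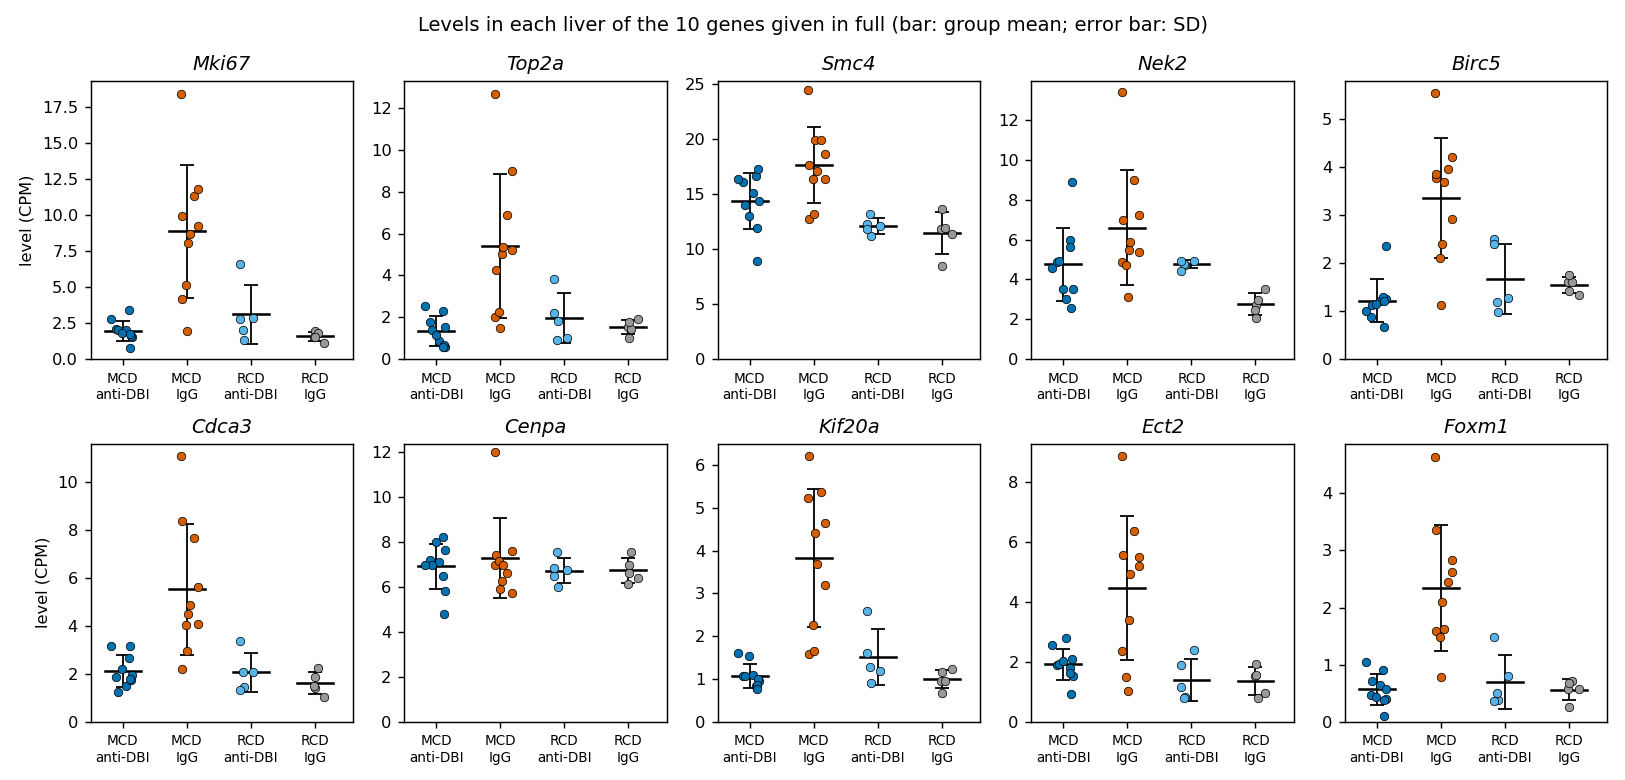
CPM in each of the 30 livers (points) of the 10 genes given with full values, 1 panel per gene, with the group mean (bar) and SD (error bar). In Mki67, Kif20a and Foxm1, 9 of 10 MCD IgG livers lie above every MCD anti-DBI liver. The MCD groups overlap widely in Smc4 and Nek2, and all 4 groups overlap in Cenpa.

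Within MCD IgG, the same livers were high or low in most of the 42 genes. Liver 3 had the highest level of its group in 34 of the 42 genes and was among the highest 3 in 40. It also had the lowest hepatocyte marker sum of its group (71424 CPM). Its sums of monocyte and macrophage (2340 CPM), stellate cell (346 CPM), neutrophil (24.4 CPM) and T and NK cell (8.45 CPM) markers were the highest. Whether all genes follow this order of livers as often was not tested. Liver 5 had the lowest level in 26 and was among the lowest 3 in all 42, and livers 2 and 4 were among the lowest 3 in 34 each. The hepatocyte marker sum of liver 5 was also low, at 81297 CPM the next above that of liver 3. In MCD anti-DBI the order was looser: liver 8 was lowest in 19 genes and liver 7 highest in 13. In RCD anti-DBI, liver 4 was highest in 35 genes. Leaving out MCD IgG liver 5 raised the number of genes that rose on MCD to 37 and of those that fell under anti-DBI to 30, and leaving out liver 3 gave 33 and 24.

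**Figure D4:**
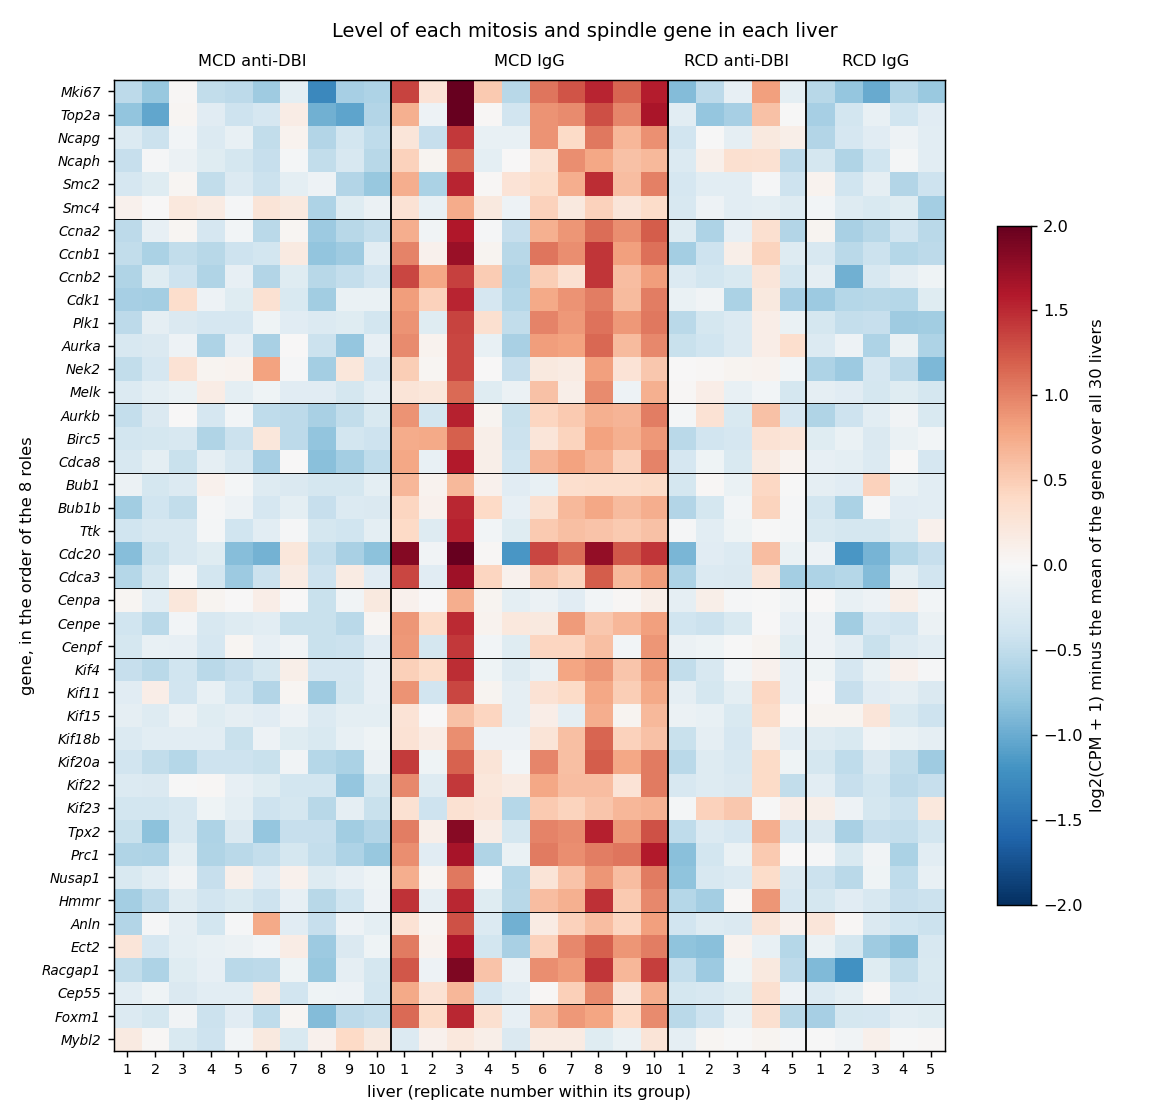
Level of each gene (row, in the order of the 8 roles) in each liver (column, by group), as log2(CPM + 1) minus the mean of the gene over the 30 livers. MCD IgG livers 2, 4 and 5, among the lowest 3 of their group in 34, 34 and 42 genes, are pale or blue, RCD anti-DBI liver 4 is the highest of its group in 35 genes, and the rows of Cenpa and Mybl2 stay pale.

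Against RCD IgG, MCD anti-DBI livers had 1 gene called of 27 tested, while 18.4% of all 13912 genes tested were higher. It was Nek2 at 0.80 ± 0.260 (edgeR adjusted p = 0.0230), and this call was lost without RCD IgG liver 2 (edgeR adjusted p = 0.0571) or liver 5 (edgeR adjusted p = 0.0704). Of the 27 genes, 18 were above 0 and 9 below, 4 had an unadjusted p under 0.05, and the values lay between -0.73 (Prc1) and 0.80. The median was 0.05, against 0.01 over all genes. Without the filter, Nek2 was again the only call among the 42 genes, 24 lay above 0 and 18 below, and the median was 0.05. These values lay between -1.17 (Bub1) and 1.13 (Melk), with Plk1 at 1.08 ± 0.415 (edgeR adjusted p = 0.0801). For Plk1, 8 of the 10 MCD anti-DBI livers stood above every RCD IgG liver. Mki67 stood at 0.32 ± 0.260, Top2a at -0.18 ± 0.352, Kif20a at 0.14 ± 0.228 and Foxm1 at 0.02 ± 0.367. A missed threshold does not show that the groups were alike, and these standard errors leave room for differences of some size in genes of low counts.

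The antibody comparison on chow gave 1 call. Of 17 genes tested in RCD anti-DBI against RCD IgG, 1 was called, while 6.08% of all 12699 genes were called in either direction. It was again Nek2, at 0.79 ± 0.159 (edgeR adjusted p = 0.00942), with 4.76 ± 0.203 CPM in RCD anti-DBI and 2.74 ± 0.555 CPM in RCD IgG (SD, n = 5 each). With all 30 libraries in 1 fit its adjusted p was 0.225. Of the other 16 genes, 15 lay above 0, 1 had an unadjusted p under 0.05, and the largest values were 1.11 for Cdc20 and 0.97 for Mki67. The median of the 17 genes was 0.34, against 0.00 over all genes. Without the filter, Nek2 was again the only call among the 42 genes. Of these 42, 39 lay above 0 and 3 below, with a median of 0.41, against 0.01 over all genes. Without RCD anti-DBI liver 4, Mki67 stood at 0.48. In this liver the summed level of the 42 genes was 90.7 CPM, against 46.1 to 59.0 CPM in the other RCD anti-DBI livers and 43.8 to 54.7 CPM in the RCD IgG livers. It also had the highest summed levels of its group of the B cell (39.5 CPM), neutrophil precursor (6.36 CPM), T and NK cell (6.60 CPM), hepatocyte, endothelial and cholangiocyte markers. Over the whole comparison, 4 of 6 Kupffer cell markers (Timd4, Cd5l, Marco and Folr2) rose and all 6 lay above 0, with a median of 0.55, and 3 of 9 monocyte and macrophage markers tested rose and all 9 lay above 0, with a median of 0.47. The Kupffer cell markers summed to between 293 and 455 CPM in RCD anti-DBI and 238 and 325 CPM in RCD IgG. The part of these cells in the result was not tested.

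Whether the antibody acted differently on both diets was tested as an interaction over all 30 libraries. Of 39 genes tested, 32 had a lower log2 change under the antibody on MCD than on RCD, while 8.63% of all 14335 genes did, and the median difference was -2.34. Only 17 of the 42 genes had enough counts to be tested on RCD alone, so others can enter through MCD IgG. Without the filter, 31 of the 42 had a lower change, with a median of -2.32, against -0.01 over all genes. The share of all genes with a lower change was not counted without the filter, so this 31 has no background beside it. The interaction uses the same MCD IgG livers, so it is no separate evidence of the fall under anti-DBI on MCD. The differences were -3.13 ± 0.542 for Mki67 (edgeR adjusted p = 0.000234), -2.42 ± 0.435 for Kif20a (edgeR adjusted p = 0.000308) and -4.21 ± 0.933 for Ccnb1 (edgeR adjusted p = 0.00212). The RCD side of the Ccnb1 value rests on 2 to 3 counts per liver in RCD IgG and 1 to 17 in RCD anti-DBI, highest in liver 4. Ccnb1 had too few counts to be tested on RCD alone. Nek2, whose change on MCD alone did not pass, had -1.27 ± 0.372 (edgeR adjusted p = 0.0157), its value being -0.49 on MCD and 0.79 on RCD. The 7 genes that did not pass were Smc4, Cenpa, Kif18b, Nusap1, Anln, Ect2 and Mybl2.

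Other genes of the cell cycle were set beside these 42. Over all genes tested, 4084 of 13672 rose and 3723 fell on MCD. Under anti-DBI on MCD, 2756 of 13538 rose and 2940 fell. Of 53 other mitotic genes, 43 were tested on MCD, of which 31 rose and 5 fell, and 33 were tested under anti-DBI on MCD, of which 21 fell and 1 rose. The most highly counted of them did not follow the majority. Hjurp, the chaperone of CENP-A, had 215 ± 32.6 CPM in MCD anti-DBI, against 206 ± 20.5 CPM in MCD IgG and 212 ± 25.5 CPM in RCD IgG. Zwint, a kinetochore gene, fell on MCD by 0.44. Pttg1, securin, which holds back separase, fell on MCD by 0.65 and was the gene that rose under anti-DBI, by 0.24 (edgeR adjusted p = 0.00878).

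Of 23 genes of S phase, when DNA is copied, 17 rose and 1 fell on MCD, and under anti-DBI 17 of 22 tested fell and none rose. Pcna, the sliding clamp of DNA replication, gave 0.53 on MCD and -0.43 under anti-DBI, and Rrm1, a subunit of ribonucleotide reductase, gave 0.85 and -0.61. Tk1, thymidine kinase, was the gene that fell on MCD, by 0.87, and had 0.01 under anti-DBI. The medians of this list were 0.92 on MCD and -0.92 under anti-DBI. Of 26 cohesin and APC/C subunits, which act in mitosis but are present in resting cells too, 7 rose and 8 fell on MCD, and 6 rose and 4 fell under anti-DBI. Their medians were -0.01 and 0.03. Wapl, which releases cohesin, fell on MCD by 0.32 and rose under anti-DBI by 0.31, Smc1a fell on MCD by 0.39, and Anapc5 rose on MCD by 0.35.

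Of the DREAM, RB and MuvB subunits, which act on the CHR element and E2F sites, 13 were tested, of which 2 rose and 4 fell on MCD, and 4 rose and 2 fell under anti-DBI. Rbl2 (p130), the pocket protein of the DREAM repressor in resting cells, had 44.6 ± 7.24 CPM in MCD anti-DBI, against 31.6 ± 5.89 CPM in MCD IgG and 56.2 ± 5.10 CPM in RCD IgG, opposite in direction to the mitotic genes. It fell on MCD by 0.83 (edgeR adjusted p = 5.33e-06) and rose under anti-DBI by 0.49 (edgeR adjusted p = 0.000810). Rbbp4 fell by 0.50 and rose by 0.30 in the same way, and Tfdp1 had -0.07 and -0.16. Of 12 G1 cyclins, CDKs and inhibitors tested, 5 rose and 2 fell on MCD, and 2 rose and 3 fell under anti-DBI, with medians of 0.19 and -0.05. Ccnd1, cyclin D1, which acts before S phase, had 259 ± 75.8 CPM in MCD anti-DBI, against 395 ± 104 CPM in MCD IgG and 54.8 ± 8.59 CPM in RCD IgG. Ccnd1 thus fell by 0.62 under anti-DBI on MCD (edgeR adjusted p = 0.00666) but was still 2.25 above RCD IgG on the log2 scale (edgeR adjusted p = 6.01e-07). Cdk4 gave 0.28 on MCD and -0.17 under anti-DBI, and Cdk6 gave 0.10 and 0.01.

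Markers of some other cell types moved with the 42 genes, and those of others did not. Of 12 monocyte and macrophage markers, 10 rose on MCD and 11 fell under anti-DBI, and their summed level lay between 287 and 1441 CPM in MCD anti-DBI, 411 and 2340 CPM in MCD IgG, 302 and 520 CPM in RCD anti-DBI, and 268 and 352 CPM in RCD IgG. MCD IgG livers 3 and 5 were the highest and lowest of their group in this sum as well. The order of the livers was not the same throughout: MCD IgG liver 4 had 1576 CPM of these markers and 79.2 CPM of the 42 genes, whereas liver 8 had 921 and 175 CPM. MCD anti-DBI liver 6 had 1441 CPM of these markers and 63.9 CPM of the 42 genes. Against RCD IgG, 10 of the 12 markers were still higher and 2 lower in MCD anti-DBI, where 1 of 27 mitosis and spindle genes was called.

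Of 8 stellate cell markers, 5 rose on MCD and 5 fell under anti-DBI, with sums of 132 to 207 CPM in MCD anti-DBI, 141 to 346 CPM in MCD IgG and 98.5 to 215 CPM in RCD IgG. Of the 6 neutrophil markers, 4 were tested on MCD and rose, and 3 fell under anti-DBI, with sums of 5.83 to 13.1 CPM in MCD anti-DBI, 8.77 to 24.4 CPM in MCD IgG and 3.53 to 5.67 CPM in RCD IgG. Ly6g was at 0 counts in RCD IgG. Of 6 cholangiocyte markers, 2 rose on MCD and 1 fell under anti-DBI. The part of these cells in the levels of the 42 genes was not tested.

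The 7 erythroid precursor markers summed to between 61.2 and 118 CPM in MCD anti-DBI, 42.1 and 76.0 CPM in MCD IgG, and 123 and 156 CPM in RCD IgG. Their sum was thus lowest in the group with the highest level of the 42 genes. Within MCD IgG it ran the same way as the 42 genes at the extremes, with 76.0 CPM in liver 3, the highest of the group in both, and 42.1 CPM in liver 5, the lowest in both. The 6 neutrophil precursor markers summed to at most 2.85 CPM in MCD anti-DBI, 1.13 in MCD IgG and 0.571 in RCD IgG, and Mpo, Camp and Ltf were at 0 counts in both RCD groups. The 10 T and NK cell markers lay between 2.52 and 8.45 CPM in every liver, and of the 1 tested on MCD and the 2 tested under anti-DBI none passed. The 6 B cell markers summed to between 8.04 and 16.8 CPM in MCD anti-DBI, 5.64 and 17.3 CPM in MCD IgG, and 19.9 and 34.3 CPM in RCD IgG. Of 6 Kupffer cell markers, 1 rose and 3 fell on MCD and none passed under anti-DBI on MCD, while 4 rose under anti-DBI on chow. Of 6 endothelial markers, 5 fell on MCD, and 1 fell and 1 rose under anti-DBI on MCD. The hepatocyte markers moved the other way: 4 of 8 fell on MCD and 7 of 8 rose under anti-DBI. Of all genes tested, 3723 of 13672 fell on MCD and 2756 of 13538 rose under anti-DBI on MCD.

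**Figure D5:**
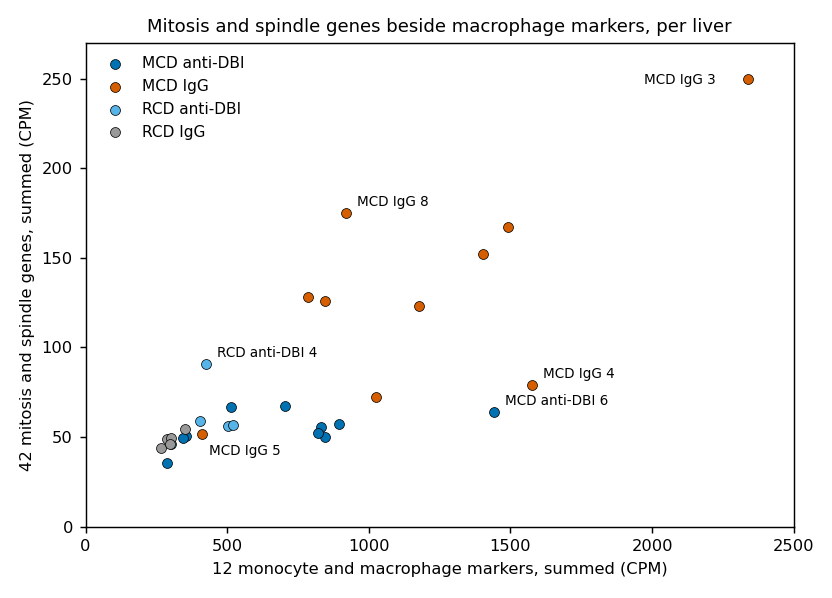
Summed CPM of the 42 mitosis and spindle genes against the summed CPM of the 12 monocyte and macrophage markers, 1 point per liver, coloured by group. MCD anti-DBI liver 6 has 1441 CPM of the markers and 63.9 CPM of the mitosis and spindle genes, whereas MCD IgG liver 8 has 921 and 175 CPM.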

How the data were processed

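Members, gene lists and tests were chosen with earlier results of these data known. Livers were grouped by their labels, all 30 entered the comparisons, and no source says whether mice shared a cage or batch. The counts used here were the deposited whole-number counts per gene, which were not normalized. The table header gives STAR and featureCounts on GRCm38, but the methods give HISAT2 and another build. The same table holds 30 columns of counts divided by size factors and the authors' fold changes and p-values, none of which were used here. The library kit does not mark the strand.

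Counts were tested in R 4.3.3 with edgeR 4.0.16: genes kept by filterByExpr, TMM scaling, glmQLFit and glmQLFTest on the 2 groups compared (all 30 libraries for the interaction), and Benjamini-Hochberg adjustment over all genes tested, with a threshold of 0.05. A standard error is the log2 value over the square root of F. Named genes: every member once, with full values for the most highly counted member of each role, Mki67 and Top2a, exceptions of a role, and up to 3 most highly counted genes of each related list. The fit was tested on simulated data. Alternatives were DESeq2 1.42.0, RLE and upper-quartile scaling, no filter, a minimum of 10 counts per library, a joint fit of all groups, a replicate block, MCD anti-DBI 5 and 10 summed, pseudocounts, and each library left out. Plots were drawn in matplotlib.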

Additional observations from a re-analysis of the deposited data

Results flagged for a closer look

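Single livers stood apart from the rest of their group in 3 of 44 checks of the 10 genes given in full and the summed level (Dixon's test, which chance alone passes in about 1 of 20 groups). Mki67 was at 6.60 CPM in RCD anti-DBI liver 4, the liver with the highest level of its group in 35 of the 42 genes. Birc5 was at 2.36 CPM in MCD anti-DBI liver 6, and Cenpa was at 12 CPM in MCD IgG liver 3.

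The change under the antibody differed between MCD and RCD in 7 of the 10 genes, by the interaction over all 30 libraries (edgeR with Benjamini-Hochberg adjustment). The change on MCD minus that on RCD, on the log2 scale, was -3.13 for Mki67, -2.35 for Top2a, -1.27 for Nek2, -1.57 for Birc5, -1.71 for Cdca3, -2.42 for Kif20a and -2.30 for Foxm1.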

How the results depend on the processing

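Low counts set the limit of these results. With a minimum of 10 counts per library, 7 genes rose on MCD, 5 fell under anti-DBI on MCD and 3 were called in the interaction, since few genes could then be tested. In MCD anti-DBI against RCD IgG, 2 genes were higher with upper-quartile scaling and 2 with the replicate number as a block (Nek2 and Smc4), against 1 as reported. In RCD anti-DBI against RCD IgG, 0 genes were called by edgeR with all 30 libraries in 1 fit, against 1 as reported, which also had 2 genes at an unadjusted p under 0.05. Leaving out each library in turn gave 33 to 37 genes higher in MCD IgG than in RCD IgG, 24 to 30 lower in MCD anti-DBI than in MCD IgG, 0 to 3 higher in MCD anti-DBI than in RCD IgG (0 without RCD IgG liver 2 or 5, and 3 without MCD anti-DBI liver 8), 1 in RCD anti-DBI against RCD IgG and 29 to 36 in the interaction. Lower calls in MCD anti-DBI against RCD IgG also appeared. Prc1 was called lower without RCD IgG liver 4, and Birc5 without MCD anti-DBI liver 6 (-0.49, edgeR adjusted p = 0.0402). The difference in mean log2(CPM + 1) of the 42 genes, MCD anti-DBI minus MCD IgG, was -0.84, and -1.28 with a pseudocount of 0.25. Among the 10 genes given in full, no value reversed its direction past the threshold. The cause of these shifts was not tested.

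Livers share replicate numbers across groups in their labels. Deviations of same-numbered livers from their group means correlated at -0.17 to 0.15. The best match was the liver of the same number for 3 of 5 in MCD IgG against RCD IgG. It was so for 0 of 10 in MCD anti-DBI against MCD IgG, and 1 of 5 in each other comparison. These values cannot show whether the numbers pair the mice. With the number as a block, 29 genes rose on MCD, 25 fell under anti-DBI, 1 was called on RCD and 31 in the interaction. With DESeq2 the counts were 35, 26, 1 and 35 in the same order, and with MCD anti-DBI livers 5 and 10 summed, 26 genes fell under anti-DBI and 32 were called in the interaction. For the 10 genes given in full, 1200 of 1226 values under the alternatives stayed on their side of the threshold, 16 lost a call (Smc4 and Nek2) and 10 gained one. Other calls were less stable: Anln under anti-DBI was not kept in 21 of 28 alternatives, Cep55 and Kif18b on MCD in 6 of 22 each, and Kif4 and Cep55 in the interaction in 20 and 19 of 37. With the block, Ncapg, Cenpf, Aurka, Cdca8, Kif4 and Ttk were no longer called on MCD.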
